A study of Procotyla fluviatilis with 12 samples.

Results

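Of 149594 contigs assembled from the planarian *Procotyla fluviatilis*, 21 stood apart in tissue taken next to a posterior wound alone, 9 of them higher and 12 lower there than in every other library. Levels were read counts per 1000000 (CPM), the reads of a contig divided by the reads of its library and multiplied by 1000000. The 41058 contigs that averaged 1 CPM or more across 12 libraries were considered. Contigs were chosen by their CPM in all 12 libraries. A contig was taken when the group means of the 3 other groups lay within 1.5-fold of each other and the Reg- amputated mean was at least 1.5 times the highest of them, or at most the lowest divided by 1.5. In addition, each Reg- amputated library had to lie beyond all 9 others. The levels are therefore given as a description and none of them is tested.

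Libraries were made from 4 groups of adult worms collected in the field, kept briefly at 18 °C and pooled by 3 for each RNA preparation. Reg- amputated tissue was excised 24 hours after a cut posterior to the pharynx, where the labels call the worm deficient in regeneration. Reg+ amputated tissue came from 24 hours after a cut anterior to the pharynx, where it is called proficient. Reg- uncut and Reg+ uncut tissue came from intact worms at the matching positions. Each group had 3 libraries, with replicate numbers from the titles, which for Reg- uncut are 1, 3 and 4. Tissue was taken behind the cut, so it included whatever cells lay there. Whether the pools of a group came from separate collections is not given, so the spread between libraries may be in part technical.

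Planarians replace lost parts from neoblasts, the dividing stem cells of the adult body, which gather near a wound and give rise to a blastema. In well studied planarians Wnt/β-catenin signalling marks posterior identity along the body, and its restraint at a wound that faces forward is needed for a head. Some species, among them this one, form a head only when cut in front of a certain level of the body. Comparing a wound in each region with uncut tissue asks which transcripts differ where a head does not form.

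Library totals ran from 22038256 to 31266924 reads. Over the 41058 contigs, the 3 Reg- amputated libraries had a mean Spearman correlation of 0.888 with each other, against 0.967 among Reg+ amputated, 0.964 among Reg- uncut and 0.952 among Reg+ uncut libraries. Reg- amputated replicate 3 stood apart from replicate 1 of its group, at 0.814. The Reg- amputated libraries correlated at 0.932 with Reg+ uncut, at 0.887 with Reg- uncut and at 0.874 with Reg+ amputated libraries. As labelled, they were therefore closest to uncut tissue of the other region. The mirror of this held for Reg+ amputated libraries, which correlated at 0.955 with Reg- uncut and at 0.867 with Reg+ uncut libraries, their own control. An exchange of labels between whole groups and a true likeness cannot be told apart here, so group names, own controls and directions hold only as labelled. These correlations are across contigs, which are not independent replicates.

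Few contigs met the rule for Reg- amputated tissue. The 9 higher contigs made up 0.0219% of those considered and the 12 lower contigs 0.0292%. The same rule applied to Reg+ amputated tissue found 49 higher contigs (0.119%) and 686 lower contigs (1.67%). For Reg- uncut tissue it found 72 higher (0.175%) and 77 lower (0.188%), and for Reg+ uncut tissue 55 higher (0.134%) and 19 lower (0.0463%). The differences between these counts were not tested. Reg- amputated libraries also varied most among themselves, with a median coefficient of variation of 19.6% over the 41058 contigs, against 13.9% in Reg+ amputated, 12.9% in Reg- uncut and 15.8% in Reg+ uncut libraries. The part of this spread in the counts was not tested.

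**Figure D1:**
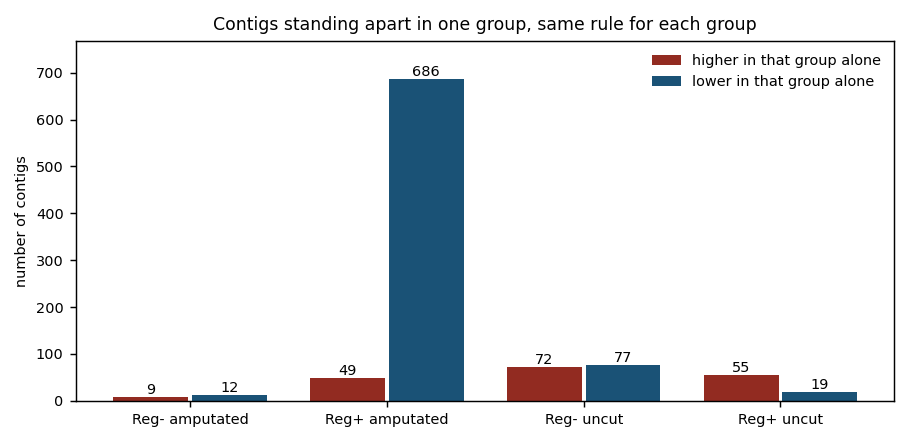
Number of contigs (vertical axis, linear from 0) that stood apart in 1 group alone, with the same rule applied to each of the 4 groups on the horizontal axis. Red bars count contigs higher and blue bars contigs lower in that group. Reg- amputated tissue has 9 and 12, and the tallest bar is the 686 contigs lower in Reg+ amputated tissue.

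The other 3 groups lay within 1.5-fold of each other at 26590 contigs, 64.8% of those considered. Among these, 62 had a Reg- amputated mean at least 1.5 times the highest of the others, and in 53 of the 62 some libraries overlapped. Likewise, 37 had a mean at most the lowest divided by 1.5, of which 25 overlapped. Conversely, all 3 Reg- amputated libraries were above the 9 others at 86 of the 26590 contigs. The median ratio of group means over the 86 was 1.18, and 77 of them differed by less than 1.5-fold. The Reg- amputated libraries were below the 9 others at 137 of the 26590 contigs. The median ratio over the 137 was 0.822, and 125 of them missed the fold threshold. By the same count, Reg+ amputated libraries were above the 9 others at 575 and below at 1808 of 30931 contigs with close other groups. For Reg- uncut libraries it was 513 and 648 of 27417, and for Reg+ uncut libraries 756 and 141 of 30956. The differences between groups were not tested. In Reg- amputated tissue, contigs that differed by fold were thus mostly ones whose libraries overlapped, and contigs that separated mostly differed little. Separated contigs also mostly missed the fold threshold in the other groups, such as 526 of 575 and 1122 of 1808 in Reg+ amputated tissue. Overlap at contigs differing by fold varied there, from 588 of 1274 lower contigs in Reg+ amputated to 1672 of 1691 in Reg+ uncut tissue.

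The counts depended on single libraries. Without Reg- amputated replicate 3 the rule found 29 higher and 71 lower contigs, of which 6 and 9 were among the 21. Without replicate 1 it found 44 and 52, and without replicate 2 it found 31 and 45. In these cases only 2 libraries had to lie beyond the other 9, so that the rule was easier to meet. Without Reg+ uncut replicate 3 there were 18 higher contigs.

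The files give each contig an identifier, a length and reads, and pair none with a gene name, so no function, pathway or cell type is attached to any of them here. A de novo assembly can split a transcript into several contigs, and some of the 21 may belong to the same gene. More RNA per cell and more cells of a type cannot be told apart in tissue pieces such as these.

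Of the 9 higher contigs, 4 exceeded the nearest other group by at least 2-fold, and the median ratio was 1.99. The largest ratio belonged to contig110686 (206 nt). It had 1.73, 9.87 and 1.55 CPM in the 3 Reg- amputated libraries, against 0.48, 0.451 and 0.964 CPM in Reg+ amputated worms, 0.595, 0.436 and 1.29 CPM in Reg- uncut worms, and 0.95, 0.671 and 0.771 CPM in Reg+ uncut worms. The Reg- amputated mean was 5.50 times that of Reg+ uncut, the nearest group, but its coefficient of variation was 108% and replicate 2 alone held 265 of the group's 365 reads. Without replicate 2 the ratio was 2.06. The lowest Reg- amputated library had 48 reads and the highest other library 37.

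The contig next in ratio, contig91690 (232 nt), was at 3.15, 2.53 and 6.41 CPM in Reg- amputated tissue. It was at 1.79, 2.17 and 0.571 CPM in Reg+ amputated worms, 1.40, 0.772 and 1.08 CPM in Reg- uncut worms, and 1.06, 1.17 and 1.95 CPM in Reg+ uncut worms. Here replicate 3 was the highest Reg- amputated library, unlike in contig110686. The ratio of means to Reg+ amputated tissue, the nearest group, was 2.67, and without replicate 3 it was 1.88.

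A pair of short contigs was far more abundant per length than the other 7. Deposited RPKM, which are reads scaled to contig length and library total, averaged 142 for contig97012 (221 nt) in Reg- amputated tissue, against 44.0 in Reg+ amputated, 42.5 in Reg- uncut worms, and 59.8 in Reg+ uncut worms. For contig32775 (161 nt), the shortest of the 21, the means were 148 RPKM in Reg- amputated tissue and 56.4, 71.7 and 74.5 RPKM in Reg+ amputated, Reg- uncut and Reg+ uncut tissue. In CPM, contig97012 had 39.8, 35.0 and 19.5 in the Reg- amputated libraries, and 3.99 to 17.6 in the 9 others. Its highest other library was Reg- uncut replicate 4, while the remaining Reg- uncut libraries were at 6.61 and 3.99 CPM, so its own control spread widely (coefficient of variation 76.6%). The ratio of means to the nearest group was 2.38. Levels of contig32775 were 31.1, 20.6 and 19.9 CPM in Reg- amputated tissue and 4.51 to 18.2 CPM in the 9 others, a ratio of 1.99. With 552 to 937 reads in each Reg- amputated library, contig32775 was among the best counted of the 21.

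At 673 nt, contig225 was longer and scarcer. It had 1.66, 1.56 and 2.69 CPM in Reg- amputated tissue, 0.544, 0.78 and 1.29 CPM in Reg+ amputated tissue, and between 0.735 and 0.998 CPM in all 6 uncut libraries. The uncut libraries of both regions were thus close together, and 1 Reg+ amputated library came near the Reg- amputated ones. Its ratio to the nearest group was 2.10, and 1.72 without Reg- amputated replicate 3.

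The remaining 4 higher contigs were between 1.52 and 1.55 times the nearest group, close to the threshold. The longest higher contig, contig22239 (1201 nt), had 4.35, 4.54 and 6.997 CPM in Reg- amputated libraries and 2.42 to 4.11 CPM in the others, and its ratio of 1.55 was 1.303 without replicate 3. Its group means of 3.34, 3.41 and 3.38 CPM in Reg+ amputated, Reg- uncut and Reg+ uncut tissue were nearly equal. Of these 4, contig55778 (328 nt) was at 3.94 ± 0.72 CPM in Reg- amputated, 1.81 ± 0.26 CPM in Reg+ amputated worms, 2.10 ± 0.26 CPM in Reg- uncut worms, and 2.57 ± 0.25 CPM in Reg+ uncut worms (SD, n = 3 each). For contig138770 (911 nt) the mean was 1.69 ± 0.31 CPM in Reg- amputated tissue and 1.001 to 1.09 CPM in the other groups. Only 53.7% of its reads in Reg- amputated tissue were uniquely assigned, against 47.7% in Reg+ amputated, 60.0% in Reg- uncut worms and 47.5% in Reg+ uncut worms, so reads shared with another contig could have been placed on it. On uniquely assigned reads it had 0.755, 1.004 and 1.036 CPM in Reg- amputated libraries, and Reg- uncut replicate 1 was at 0.865 CPM, so that the groups overlapped. This contig is therefore uncertain.

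Just inside the threshold, contig2887 (974 nt) had 1.56 ± 0.23 CPM in Reg- amputated tissue, 1.03 ± 0.09 CPM in Reg+ amputated worms, 0.989 ± 0.143 CPM in Reg- uncut worms, and 1.01 ± 0.19 CPM in Reg+ uncut worms, a ratio of 1.52. Just outside, contig146772 (237 nt) had 1.499 ± 0.135 CPM in Reg- amputated tissue, 0.941 ± 0.348 CPM in Reg+ amputated worms, 0.887 ± 0.212 CPM in Reg- uncut worms, and 1.02 ± 0.26 CPM in Reg+ uncut worms, a ratio of 1.47.

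**Figure D2:**
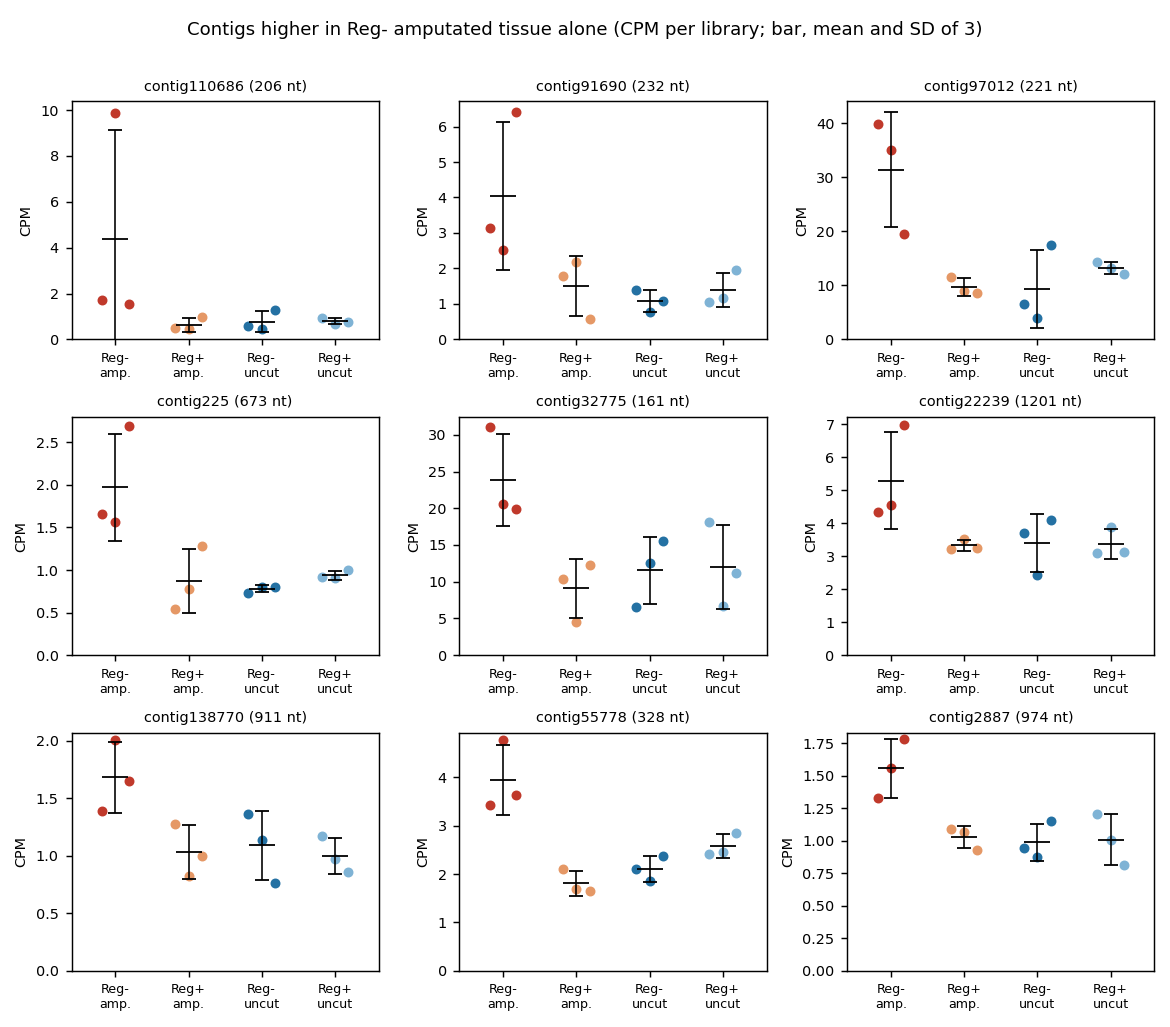
CPM (vertical axis, linear from 0) of the 9 higher contigs in each library, with 1 panel per contig in order of ratio. Groups run from Reg- amputated at the left to Reg+ uncut at the right. Points are libraries in order of replicate number, and bars give the mean and SD of 3. All red points lie above all others, and the single point at 9.87 CPM sets the mean of contig110686, whose SD bar reaches below the axis.

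The 12 lower contigs differed less in size and were steadier within the group. Their Reg- amputated means were 1.501-fold to 2.06-fold below the nearest group, with a median of 1.61-fold. The median coefficient of variation in Reg- amputated tissue was 13.5% for the lower and 27.9% for the higher contigs, against 15.6% for the 26590 contigs whose other 3 groups were close. Values above 40% occurred in 2 of the 9 higher contigs and in 0 of the 12 lower ones. The rule held every Reg- amputated library of a lower contig under a ceiling and set no upper limit for a higher contig. The difference in spread is therefore only a description.

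The lowest ratio belonged to contig110365 (340 nt), with 0.664, 0.931 and 0.648 CPM in Reg- amputated libraries. It had 1.89, 2.01 and 1.57 CPM in Reg+ amputated worms, 1.64, 1.71 and 1.254 CPM in Reg- uncut worms, and 1.42, 1.95 and 1.497 CPM in Reg+ uncut worms. The Reg- amputated mean was 2.06-fold below Reg- uncut, and it stayed 1.93-fold to 2.34-fold below with any 1 Reg- amputated library left out. It rests on 20, 25 and 20 reads in the Reg- amputated libraries, so counting error is a large part of each value.

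The longest contig of the 21, contig52247 (2054 nt), was at 1.92, 2.01 and 1.68 CPM in Reg- amputated libraries and at 2.45 to 4.57 CPM in the others, 1.75-fold below the nearest group, Reg- uncut. Its Reg+ uncut libraries were the most spread, from 2.45 to 4.57 CPM. The levels of contig70512 (413 nt) were 1.46, 1.23 and 1.23 CPM in Reg- amputated tissue. They were 2.05, 2.17 and 2.57 CPM in Reg+ amputated worms, 3.498, 2.85 and 2.75 CPM in Reg- uncut worms, and 2.37, 2.25 and 2.36 CPM in Reg+ uncut worms. Against its own control, Reg- uncut, contig70512 had the lowest ratio of all 21 contigs, at 0.431, while Reg+ amputated and Reg+ uncut tissue differed little (ratio 0.973). The gap between its nearest libraries was also the widest of the lower contigs, at a ratio of 0.713.

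Levels of contig44113 (225 nt) were tight in all groups, at 0.797, 0.707 and 0.745 CPM in Reg- amputated libraries and 1.11 to 1.497 CPM in the 9 others. The Reg- amputated libraries held only 24, 19 and 23 of its reads. Counting error alone is larger than their coefficient of variation of 5.97%. The group means of 1.27, 1.28 and 1.31 CPM in Reg+ amputated, Reg- uncut and Reg+ uncut tissue differed by a factor of 1.03, and the Reg- amputated mean was 1.70-fold below the nearest. The Reg- amputated libraries of contig1092 (682 nt) were closer still to each other, at 1.23, 1.27 and 1.23 CPM, a coefficient of variation of 1.69%. On 34 to 38 reads per library, counting error alone is larger than this spread. The other groups of contig1092 averaged 2.50 CPM in Reg+ amputated worms, 2.16 CPM in Reg- uncut worms, and 1.97 CPM in Reg+ uncut worms, with 1.39 CPM in Reg+ uncut replicate 1 as the nearest library.

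Abundant lower contigs were few. The highest mean RPKM over all 12 libraries was that of contig120052 (207 nt), although in Reg- amputated tissue contig32775 and contig97012 stood above it. It had a mean RPKM of 101 in Reg- amputated, 174 in Reg+ amputated, 172 in Reg- uncut worms, and 151 in Reg+ uncut worms. In CPM it had 21.7, 23.2 and 17.8 in Reg- amputated libraries, and its nearest other library was Reg- uncut replicate 4 at 24.8. It was also the lower contig just inside the threshold, 1.501-fold below Reg+ uncut, while contig21626 (542 nt), just outside, was 1.47-fold below. Over all 12 libraries it had the smallest uniquely assigned share of the lower contigs, 98.2%. The next per length, contig109782 (338 nt), was at 7.87, 10.2 and 10.6 CPM in Reg- amputated libraries and at 11.0 to 19.3 CPM in the others. The mean of contig21472 (1230 nt) was 5.58 ± 0.75 CPM in Reg- amputated, 9.84 ± 2.15 CPM in Reg+ amputated worms, 9.73 ± 0.47 CPM in Reg- uncut worms, and 8.55 ± 2.48 CPM in Reg+ uncut worms. Reg+ uncut replicate 2 of contig21472, at 6.10 CPM, was next to the highest Reg- amputated library, at 6.03 CPM.

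The other 4 lower contigs were of low to middling level. In contig131632 (431 nt) the mean was 3.01 ± 0.57 CPM in Reg- amputated, 5.85 ± 0.72 CPM in Reg+ amputated worms, 5.20 ± 0.50 CPM in Reg- uncut worms, and 4.90 ± 1.58 CPM in Reg+ uncut worms. The mean of contig28204 (669 nt) was 1.90 ± 0.26 CPM in Reg- amputated tissue and 3.03 to 3.64 CPM in the others. Its Reg+ uncut libraries lay between 2.99 and 3.07 CPM. For contig40741 (403 nt) it was 0.977 ± 0.207 CPM in Reg- amputated tissue and 1.68 to 1.92 CPM in the others. Its closest libraries, Reg- amputated replicate 2 at 1.19 CPM and Reg+ uncut replicate 2 at 1.21 CPM, held 32 and 36 reads. The mean of contig148074 (415 nt) was 1.35 ± 0.10 CPM in Reg- amputated tissue and 2.03 to 2.24 CPM in the others.

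**Figure D3:**
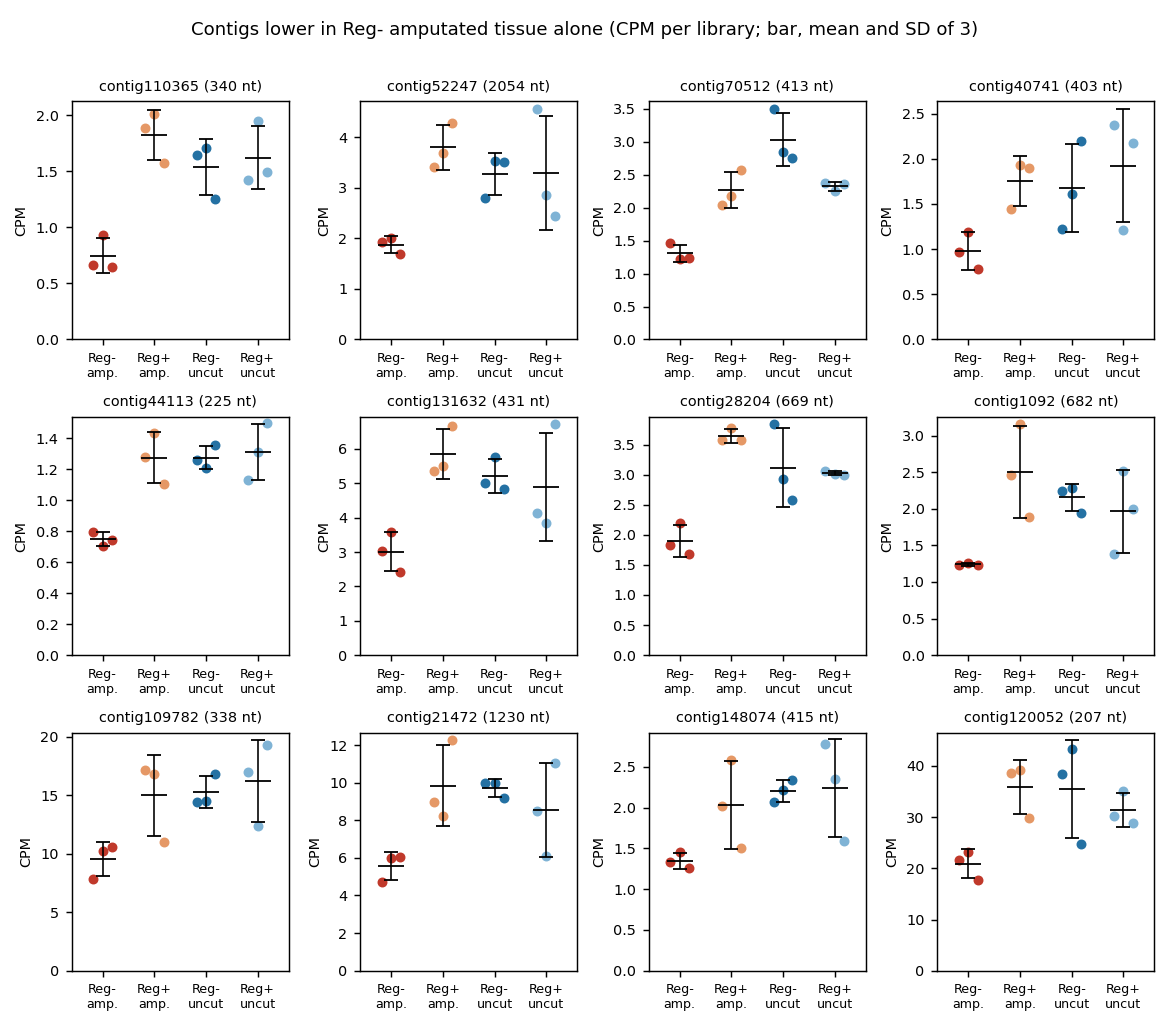
CPM (vertical axis, linear from 0) of the 12 lower contigs in each library, with 1 panel per contig in order of ratio and groups from Reg- amputated at the left to Reg+ uncut at the right. Points are libraries in order of replicate number, and bars give the mean and SD of 3. All Reg- amputated points lie below all others, with almost no gap in contig40741 and contig21472.

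Each contig was separated by the gap between its nearest libraries, and these gaps were small. The ratio of the lowest Reg- amputated library to the highest other library ran from 1.02 to 1.22 in the higher contigs, with a median of 1.11. In the lower contigs the ratio of the highest Reg- amputated library to the lowest other one ran from 0.713 to 0.987, with a median of 0.919. Exact 95% intervals (Clopper-Pearson, from the reads of the pair) included 1 for 9 of 9 higher and 12 of 12 lower contigs. These intervals cover counting error only. Reads per library ranged from 11 to 1198 in the higher contigs and from 19 to 1292 in the lower ones. By counting error alone, the order of the nearest libraries was not resolved for any of the 21, although the group means were further apart. Each pair was picked as the closest of its contig, from values the rule used. The intervals therefore describe the gaps and are not a test of the contigs.

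**Figure D4:**
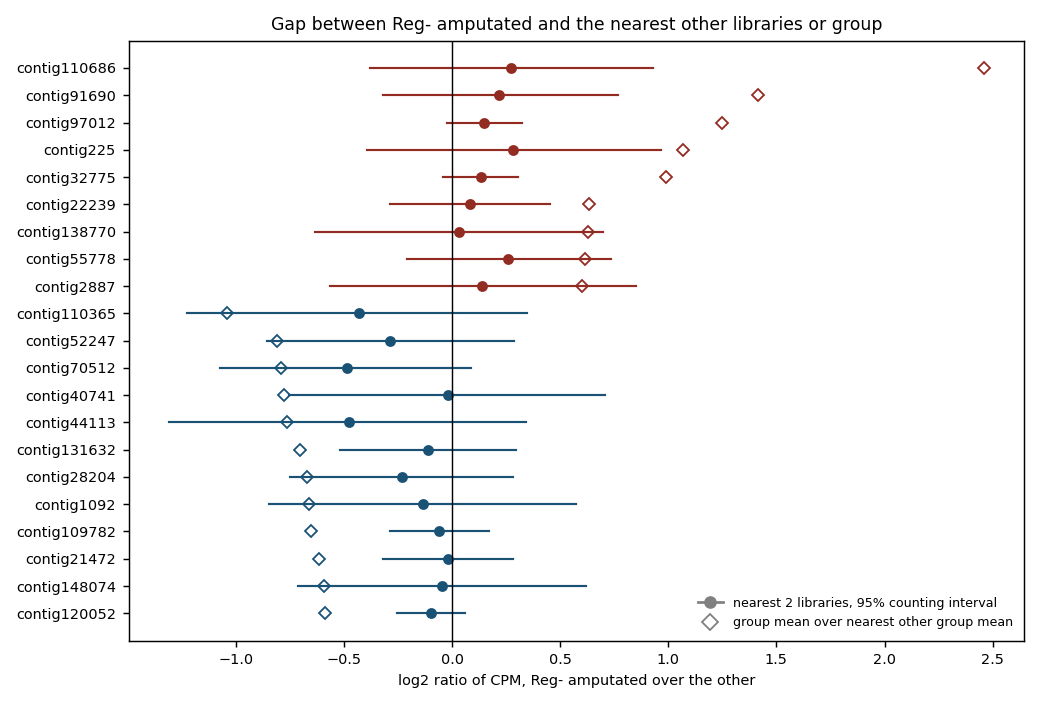
Log2 ratio of CPM, Reg- amputated over the other (horizontal axis), for the 21 contigs down the page, higher in red and lower in blue. Filled points and lines give the ratio of the nearest libraries with its exact 95% counting interval, and open diamonds the ratio of the Reg- amputated mean to the nearest other group mean. Every line crosses 0, and the diamonds lie further out than the points.

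The library nearest to the other groups was not always the same one. Among the higher contigs it was Reg- amputated replicate 1 in 4, replicate 2 in 2 and replicate 3 in 3. Among the lower contigs it was replicate 2 in 8 and replicates 1 and 3 in 2 each. Replicate 3 was thus the nearest in 5 of the 21. Separately, 6 of the 21 no longer met the rule when it was left out. Without replicate 1, 3 lower contigs no longer met it, and without replicate 2, 3 higher ones. The 6 were contig22239, contig225 and contig2887, where replicate 3 was the highest Reg- amputated library, and contig120052, contig131632 and contig148074, where it was the lowest. In these 6 replicate 3 was therefore the farthest from the other groups and not the nearest.

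In the other region, amputated and uncut means of these contigs lay within 1.5-fold of each other, as the rule required. The ratio of Reg+ amputated to Reg+ uncut means ran from 0.704 to 1.08 in the higher contigs and from 0.909 to 1.27 in the lower ones. Among the higher contigs it was below 1 in 6 and above 1 in 3, and among the lower contigs it was below 1 in 5 and above 1 in 7. Not all of these differences were small. In contig55778 the Reg+ amputated mean was 1.42-fold below Reg+ uncut, while the Reg- amputated mean was 1.53 times Reg+ uncut. Which of the 3 other groups was the nearest also varied. For the higher contigs it was Reg+ uncut in 5, and Reg+ amputated and Reg- uncut in 2 each. For the lower contigs it was Reg+ uncut in 5, Reg+ amputated in 4 and Reg- uncut in 3.

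In contig length, which the rule did not use directly, the 21 contigs were shorter than those they were drawn from. CPM, which the rule used, is not scaled to length. Their median length was 413 nt, against 743 nt for the 26590 contigs whose other 3 groups were close. Of the 21, 28.6% were under 300 nt and 14.3% over 1000 nt, against 15.2% and 37.8%. The share under 300 nt was 44.4% in the higher contigs and 16.7% in the lower ones, with median lengths of 328 nt and 414 nt. Level was part of the rule, and is given as a description. The median level of the 21 was 2.23 CPM, against 6.87 CPM, and 42.9% were under 2 CPM, against 17.6%. A minimum mean of 5 CPM kept 2 of the higher and 3 of the lower contigs. Low counts spread more between libraries by counting error alone, and the part of this in the 21 was not tested. Per length the difference was smaller, with a median of 5.12 RPKM against 9.43 RPKM. Reads were uniquely assigned to a like degree, with a median of 99.96% against 99.63%.

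Summed over the 9 higher contigs, the level was 78.1 ± 12.5 CPM in Reg- amputated, 29.0 ± 4.46 CPM in Reg+ amputated worms, 31.2 ± 11.7 CPM in Reg- uncut worms, and 36.3 ± 6.39 CPM in Reg+ uncut worms (SD, n = 3 each). The 12 lower contigs summed to 49.2 ± 4.23 CPM in Reg- amputated, 85.7 ± 6.58 CPM in Reg+ amputated worms, 84.0 ± 9.41 CPM in Reg- uncut worms, and 78.8 ± 3.78 CPM in Reg+ uncut worms. Both sums are small parts of a library of 1000000 CPM, and contig97012, contig32775 and contig120052 weigh most in them.

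A model across all contigs gave the background. The edgeR quasi-likelihood test at a Benjamini-Hochberg adjusted p under 0.05 called 1632 of 62408 contigs (2.62%) between Reg- amputated and Reg- uncut tissue, and 3 of the 21 were among them. Against the mean of the other 3 groups it called 1045 contigs (1.67%), 6 of the 21 among them. DESeq2 called 9 and 14 of the 21 in these comparisons. Over all 62369 contigs it tested, it called 2253 (3.61%) and 1437 (2.30%). The median log2 difference from Reg- uncut was 1.03 for the higher and -0.80 for the lower contigs, against -0.01 over all contigs tested. The rule used these comparisons, so the counts are not evidence for the contigs it chose. When Reg- amputated and Reg- uncut libraries were fitted alone, edgeR called 1045 of 57461 contigs (1.82%) and 0 of the 21. In this fit 19 of the 21 and 8.66% of all contigs tested had an unadjusted p under 0.05, from a comparison that the rule used.

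Membership was followed through other settings. With each of the 12 libraries left out in turn, 0 of the 9 higher contigs and 3 of the 12 lower contigs met the rule every time. These 3 were contig110365, contig44113 and contig70512, all scarce, and they also met it on uniquely assigned reads, with TMM library sizes and with DESeq2 size factors. Under these 3 changes of scaling or reads, 6 of the 9 higher and 8 of the 12 lower contigs always met the rule. Contig138770, contig120052 and contig148074 met it under none of the 3.

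**Figure D5:**
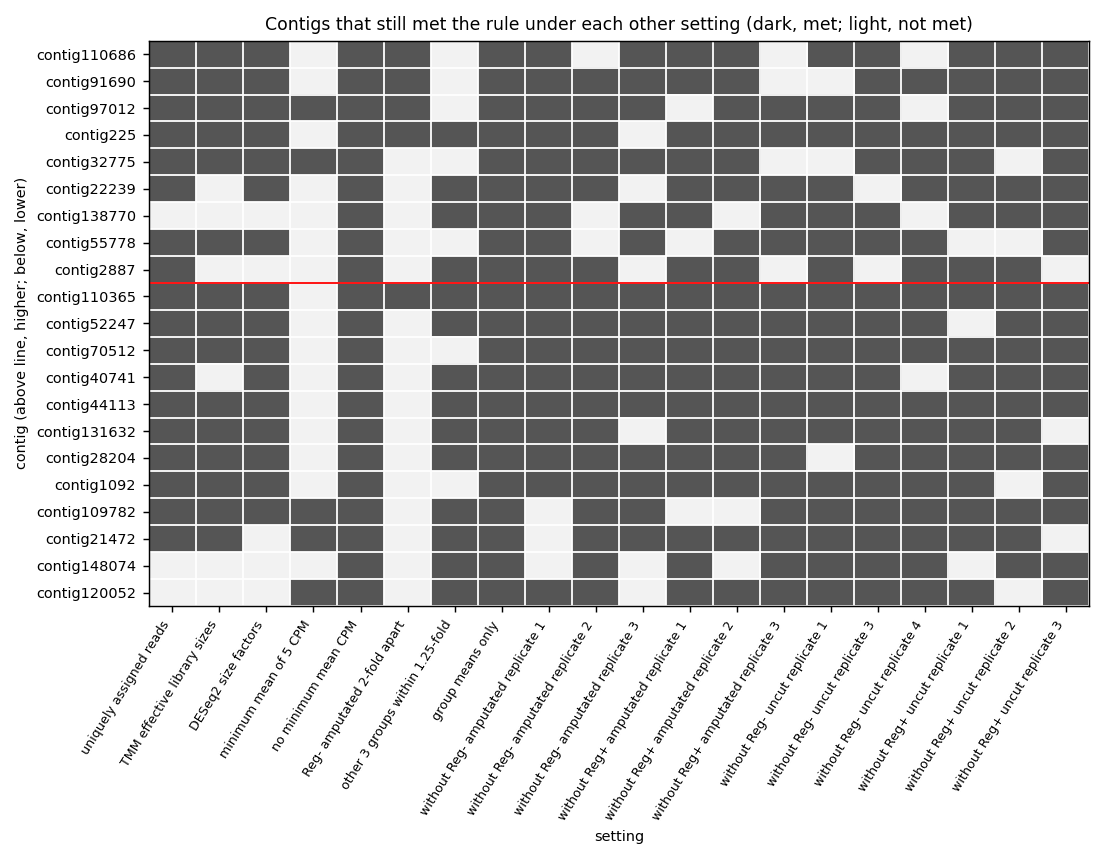
The 21 contigs (vertical axis, higher above the red line and lower below it) under 20 other settings (horizontal axis). Dark cells mark contigs that still met the rule and light cells those that did not. Rows of contig110365, contig44113 and contig70512 are dark in all 12 columns that leave out a library.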

How the data were processed

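The authors deposited, per the file headers, for each contig and library its length, the count of uniquely assigned reads, the count of all reads, and an RPKM. The deposited RPKM equals total reads scaled to contig length and to the file's total (largest difference 0.0078 RPKM). Counts were not normalized. Which aligner and counter were used, and how reads matching several contigs were placed, is not given in the sources used here. Per the labels, libraries were made with a TruSeq kit, and groups follow the sample titles.

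CPM used the file's column sum of all reads (Python 3.11.15, pandas 2.3.3, scipy 1.17.1). The contigs, their rule and the named contigs were chosen with earlier results of these data known. All 21 are described. A quasi-likelihood model with 1 mean for each group was fitted to all 12 libraries (edgeR 4.0.16, R 4.3.3, TMM, filterByExpr, Benjamini-Hochberg adjustment, two-sided). DESeq2 1.42.0 was an alternative. The scripts were tested on simulated data. No planned gene or cell type list was used, since contigs carry no gene names. Any 2 libraries of a group differed by more than counting error, with a chi-square per degree of freedom of at least 9.68. This does not tell whether they came from separate worms.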

Additional observations from a re-analysis of the deposited data

How the results depend on the processing

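The number of higher contigs (9) and lower contigs (12) followed the rule's thresholds. A minimum mean of 5 CPM left 2 higher and 3 lower contigs, and no minimum gave 114 and 89. Asking for 2-fold left 4 and 1. With the other groups differing by less than 25% there were 4 higher and 10 lower. With group means alone, libraries free to overlap, there were 62 and 37. Uniquely assigned reads gave 8 and 12, TMM sizes 7 and 11, and DESeq2 size factors 11 and 10. With 1 library left out the numbers ran from 6 to 44 higher and from 11 to 71 lower, the largest when the library was a Reg- amputated one.

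Calls against Reg- uncut (1632 of 62408 contigs) ran from 1133 to 1919 with 1 library left out. They numbered 1045 of 57461 when only Reg- amputated and Reg- uncut libraries were fitted. That fit had fewer libraries, fewer contigs and no Reg+ libraries to estimate the spread. What lowered the calls was not tested. Calls against the mean of the other groups (1045) ran from 810 to 1122. With the replicate number as a block the calls were 1327 (2.13%) and 962 (1.54%) of 62408 contigs. Of the 21 contigs, 5 and 6 were among them, against 3 and 6 without the block. Same-numbered libraries of Reg- amputated and other groups had deviations from group means that correlated between -0.158 and 0.705, above 0.1 in 7 of 8 pairs. All 3 pairs with Reg+ uncut and both pairs with Reg- uncut were above it, and 1 pair with Reg+ amputated was at -0.158. Differently numbered libraries were not compared in this way, so whether a number marks a shared source was not tested. The labels state none, Reg- uncut shares only 2 numbers with Reg- amputated and not every pair passed, so the numbers were not used as pairs. Depth limits the scarce contigs most.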
